A study of Mus musculus with 40 samples.

Results

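Radial glia and astrocyte genes were followed over the gliomas, tumor-derived cell lines and normal cortices of a mouse glioma model. They were 10 genes chosen by name, Gfap, Vim, Nes, Fabp7, Aqp4, Slc1a2, Slc1a3, Gja1, Aldh1l1 and Aldoc, and all 10 were measured among the 18193 genes of the array. The mRNA of 40 samples was hybridized to Affymetrix mouse arrays, 1 array per sample. The mice carried hGFAP-cre, in which the human GFAP promoter drives Cre recombinase in the neural lineage, together with altered p53 alleles. The 2 early lines were cultures of early-stage biopsies, and the 11 end-stage lines were cultures of end-stage gliomas, both of the p53R172HCKO genotype and grown in neural stem cell medium. The 11 p53R172HCKO gliomas came from mice with hGFAP-cre, 1 p53floxE2-10 allele and 1 p53LSLR172H allele, which expresses the missense protein R172H after recombination. The 11 p53nullCKO gliomas came from mice with hGFAP-cre and 2 p53floxE2-10 alleles, which lose exons 2 to 10. The 5 normal cortices were 3 with hGFAP-cre and 1 p53floxE2-10 allele beside a wild-type allele, and 2 without Cre and with 2 p53floxE5-6 alleles. The mice were of mixed strain background, and the labels give no age. The study describes the end-stage lines as paired with the p53R172HCKO tumors, but the labels do not say which line came from which tumor, so the tests take lines and gliomas as independent although they share mice. Samples are called here by the array number in their labels (glioma 58, line 47).

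Radial glia are the stem cells of the developing brain. They carry vimentin and nestin filaments and the fatty acid-binding protein Fabp7, and they produce neurons and later astrocytes. Astrocytes that mature raise Gfap and the proteins of a supporting cell, among them the water channel Aqp4, the glutamate transporters Slc1a2 and Slc1a3, the gap junction protein Gja1, the folate enzyme Aldh1l1 and the glycolytic enzyme Aldoc. Around injuries and in many gliomas, astrocytes make Gfap, Vim and Nes again. The Cre transgene uses the human promoter, whereas the array measures the mouse's own Gfap.

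The promoters of 4 genes are shown because these genes stand for 4 patterns. Gfap was dim in most lines, and Fabp7 was bright in every line. Slc1a3 was higher in end-stage lines than in p53R172HCKO gliomas, and Gja1 was bright in some lines and dim in others. Each window of 300 bases, with 250 before and 50 after the start of the gene, is from RefSeq (GRCm38.p6) and reads 5′ to 3′ along the gene's strand. Capitals mark matches on either strand to a STAT site (TTCNNNGAA), the NFI motif (TTGGCA) or the RBPJ motif (TGGGAA). They also mark the CCAAT box, the GC box (GGGCGG), the TATA box (TATAAA) and the SOX motif (ACAAAG).
Gfap (chr11:102897151-102897450, minus strand): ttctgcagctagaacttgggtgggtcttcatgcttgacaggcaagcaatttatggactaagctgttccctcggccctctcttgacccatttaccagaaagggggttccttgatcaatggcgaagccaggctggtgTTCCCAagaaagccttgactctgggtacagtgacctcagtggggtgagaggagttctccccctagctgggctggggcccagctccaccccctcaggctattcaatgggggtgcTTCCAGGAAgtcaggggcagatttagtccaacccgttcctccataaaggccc
Fabp7 (chr10:57784673-57784972, plus strand): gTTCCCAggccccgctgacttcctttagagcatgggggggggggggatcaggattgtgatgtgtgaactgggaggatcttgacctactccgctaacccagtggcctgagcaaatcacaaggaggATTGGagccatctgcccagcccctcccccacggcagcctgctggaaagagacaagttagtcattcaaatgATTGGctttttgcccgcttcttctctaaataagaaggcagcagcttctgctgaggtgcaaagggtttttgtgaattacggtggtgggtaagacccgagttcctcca
Slc1a3 (chr15:8710758-8711057, minus strand): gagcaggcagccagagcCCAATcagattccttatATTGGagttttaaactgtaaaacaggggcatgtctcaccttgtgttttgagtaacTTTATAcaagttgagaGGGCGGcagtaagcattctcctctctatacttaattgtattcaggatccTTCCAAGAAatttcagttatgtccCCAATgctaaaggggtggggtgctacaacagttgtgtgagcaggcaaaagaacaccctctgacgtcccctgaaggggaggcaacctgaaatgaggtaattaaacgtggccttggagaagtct
Gja1 (chr10:56377050-56377349, plus strand): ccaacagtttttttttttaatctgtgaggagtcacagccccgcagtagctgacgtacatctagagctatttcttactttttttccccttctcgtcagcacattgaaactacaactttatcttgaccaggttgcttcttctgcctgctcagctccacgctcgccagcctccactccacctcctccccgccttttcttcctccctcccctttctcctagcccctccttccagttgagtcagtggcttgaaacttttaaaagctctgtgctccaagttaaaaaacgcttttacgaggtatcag
No matches overlap in these 4 windows, and the Gja1 window holds none of the 7 motifs. RefSeq windows were found for 9 of the 10 genes, 10 windows in all because Aldoc had 2. STAT letters, the kind of site through which cytokines raise Gfap, occurred for 3 of the 9 genes (Gfap, Slc1a3 and Aldoc) and in 8.3% of all 32851 windows of this length. CCAAT letters occurred for 4 genes and in 37.4% of all windows. RBPJ letters occurred for 4 genes, in 5 of their 10 windows, and in 25.6% of all windows. For every other motif the count of windows equals that of genes. GC boxes occurred for 4 genes and in 35.7% of windows, and TATA letters for 2 genes and in 13.6%. The NFI motif occurred for 1 gene, Aldoc, and in 14.1% of windows, and SOX letters for 0 genes and in 18.7%. These counts describe letters and were not set against any level.

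Levels are log2 signals from the robust multi-array average, and the median probe set of an array lay between 5.24 and 5.47. A gene below that median is called dim. Signals of different genes are not on 1 scale, since probes differ, so levels are compared only within a gene. Each gene took its brightest probe set, all 5 groups entered 1 linear model in limma, and a gene was called at a Benjamini-Hochberg adjusted p under 0.05 over all 18193 genes. The labels do not say that samples came from separate litters or cultures, so the p-values cover only sample-to-sample spread, part of which may be technical. Tissue RNA comes from every cell of the sample, and fewer cells of a type and less RNA per cell cannot be told apart.

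Markers of other cells were scored on each array by their median log2 difference from the cortex mean. Neuron markers scored -6.24 to 0.14 in gliomas, -6.27 to -5.03 in end-stage lines and -0.20 to 0.10 in cortices. Microglia and macrophage markers scored 0.34 to 3.02 in gliomas, -3.88 to -3.11 in end-stage lines and -0.32 to 0.34 in cortices. Gliomas 38, 45 and 58 stood apart with neuron scores of -0.76, -0.65 and 0.14, while the next glioma had -2.17. The study's text describes a p53R172HCKO tumor that histology had shown to hold normal tissue before the arrays were run, and the labels do not say which array it is. Gliomas 36, 41 and 50 had the lowest oligodendrocyte progenitor scores, -1.34, 0.07 and -2.22, against a glioma median of 2.82. The next were gliomas 45 and 58 with 0.99 and 1.0, so this cut is not a clear break. Counts were also made without gliomas 38, 45 and 58 and without gliomas 36, 41 and 50, a choice made after seeing the data.

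In gliomas against cortex, 3 of the 10 genes rose and 4 fell. Vim, Nes and Fabp7 rose, by 9.81-, 3.5- and 7.79-fold. Slc1a2, Gja1, Aldh1l1 and Aldoc fell, by 7.29-, 10.8-, 4.74- and 2.34-fold. Gfap, Aqp4 and Slc1a3 were not called. Of all genes, 22.6% rose and 24.7% fell in this comparison, so shares of 3 and 4 in 10 lie not far from the background. Both counts were the same without gliomas 38, 45 and 58, and without gliomas 36, 41 and 50.

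**Figure D1:**
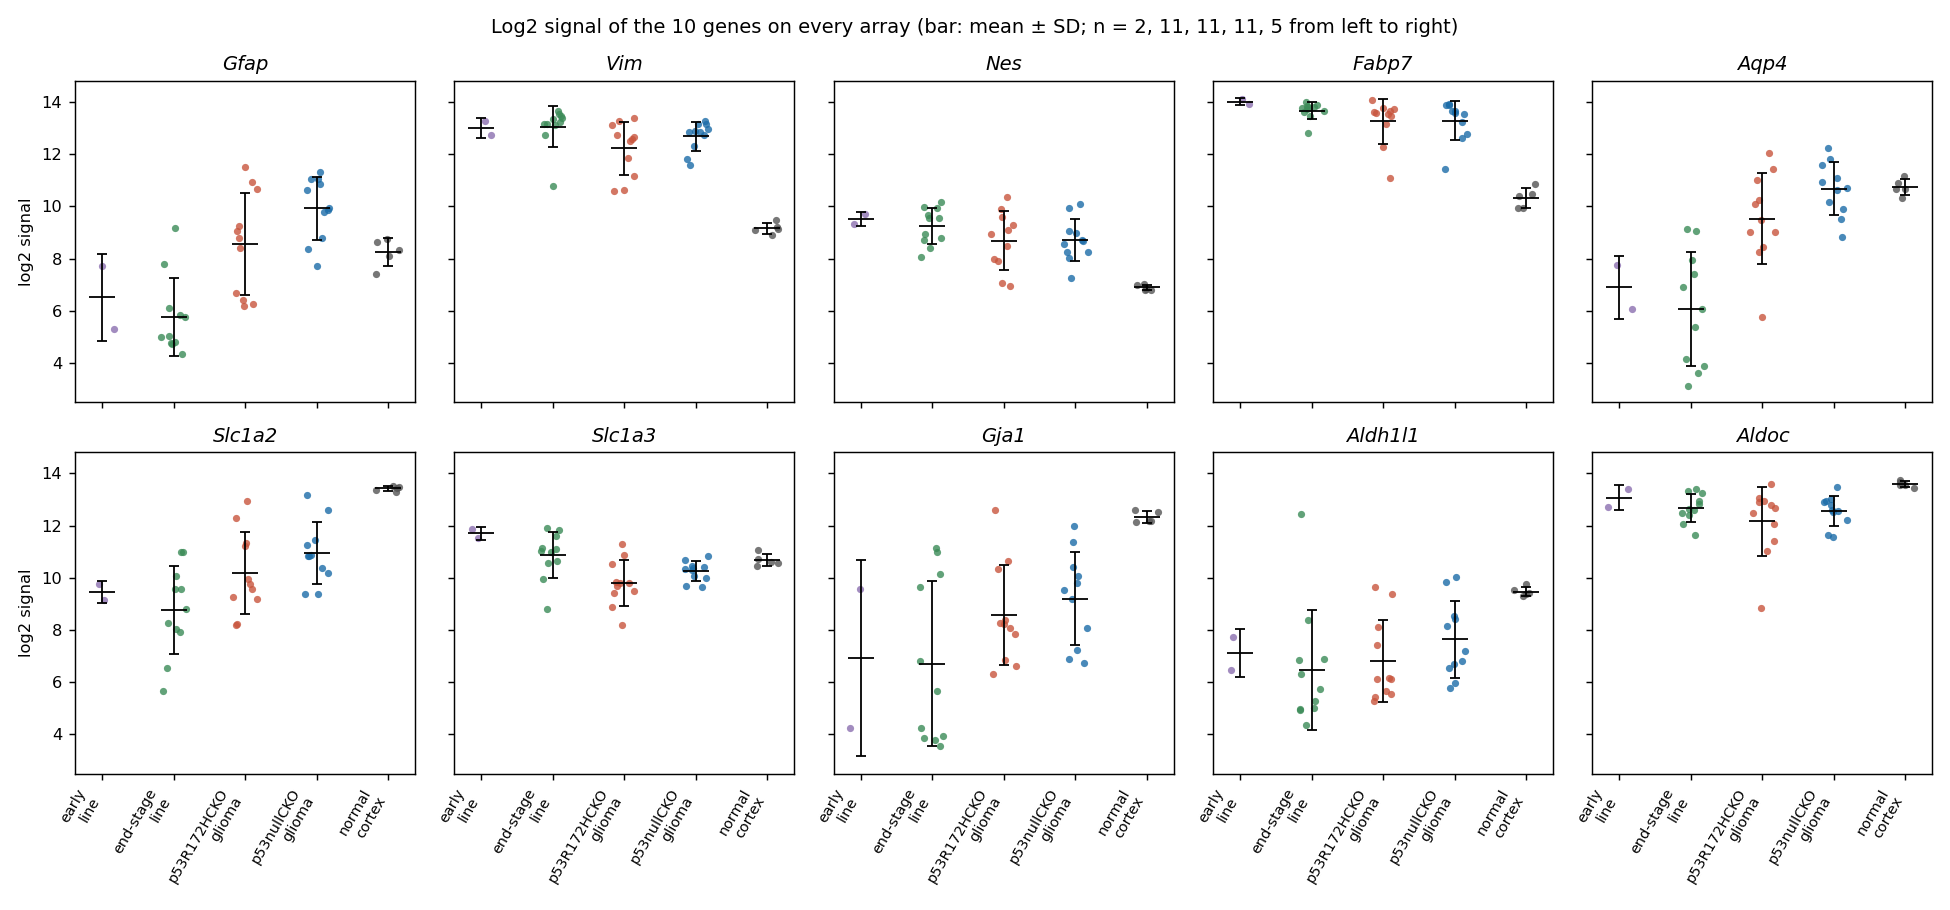
Log2 signal of each of the 10 genes (vertical axis) on every array by group (horizontal axis), from early lines at the left, through end-stage lines, p53R172HCKO and p53nullCKO gliomas, to normal cortices at the right. Points are samples and bars give the mean ± SD. Vim and Fabp7 lie above the cortices in all 22 gliomas and all 11 end-stage lines, and Gja1 spreads from 3.55 to 11.13 over the end-stage lines.

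Among the filament genes, Vim (vimentin) had a lowest, median and highest log2 signal of 10.57, 12.57 and 13.37 in p53R172HCKO gliomas and of 11.59, 12.86 and 13.28 in p53nullCKO gliomas, against 9.08, 8.89, 9.14, 9.47 and 9.22 in cortices 30 to 34. Every glioma was above the highest cortex. Vim rose by 3.29 ± 0.37 on the log2 scale (SE, adjusted p = 7.23e-09). Nes (nestin, a filament of neural stem cells) had 6.94, 8.95 and 10.37 in p53R172HCKO gliomas and 7.24, 8.68 and 10.09 in p53nullCKO gliomas, against 7.0, 7.02, 6.79, 6.81 and 6.85 in cortices. It rose by 1.81 ± 0.40 (adjusted p = 0.000323), with 21 of 22 gliomas above every cortex and glioma 58 inside the cortex range.

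Gfap, the filament gene of mature and reactive astrocytes, had 6.20, 8.77 and 11.49 in p53R172HCKO gliomas and 7.70, 9.92 and 11.30 in p53nullCKO gliomas, against 8.32, 7.41, 8.10, 8.76 and 8.64 in cortices. The groups overlapped, with 15 gliomas above all cortices and 4 below all of them. These 4 were gliomas 46, 50, 52 and 54, each of them p53R172HCKO. The difference of 1.0 ± 0.72 was not called (adjusted p = 0.267, 95% interval -0.47 to 2.47). With array weights, which count arrays far from their group for less, Gfap was called higher (1.22, adjusted p = 0.0277). That setting called more genes in this comparison, 5626 higher and 6087 lower in place of 4104 and 4488.

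Fabp7 had 11.07, 13.57 and 14.06 in p53R172HCKO gliomas and 11.43, 13.58 and 13.93 in p53nullCKO gliomas, against 10.48, 9.92, 9.92, 10.41 and 10.84 in cortices. No glioma came down to the cortex range, the lowest being gliomas 50 and 45. Fabp7 rose by 2.96 ± 0.32 (adjusted p = 3.01e-09). Its 5 lowest gliomas, 50, 45, 58, 36 and 41, with 11.07, 11.43, 12.29, 12.60 and 12.77, also had the 5 lowest oligodendrocyte progenitor scores, -2.22, 0.99, 1.0, -1.34 and 0.07. Over the 19 gliomas without 36, 41 and 50, Fabp7 and that score had r = 0.59 and rho = 0.16 (two-sided permutation p = 0.012 and 0.51, adjusted over 30 relations of genes to scores p = 0.039 and 0.61). Without gliomas 45 and 58 as well, r was -0.29, so the relation rests on these 5 gliomas. The part of progenitor-like cells in the level of Fabp7 was not tested, and without gliomas 36, 41 and 50 Fabp7 was higher than cortex by 3.14 (adjusted p = 2.98e-11). These gliomas are among its 5 lowest, so leaving them out must enlarge the difference.

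Slc1a2 (GLT-1), the main glutamate transporter of mature astrocytes, had 8.19, 9.78 and 12.94 in p53R172HCKO gliomas and 9.36, 10.84 and 13.18 in p53nullCKO gliomas, against 13.29, 13.53, 13.45, 13.48 and 13.38 in cortices. All 22 gliomas lay under the lowest cortex, and Slc1a2 fell by 2.86 (SE 0.67, adjusted p = 0.000575). It was not called on a probe set with group means of only 5.21 to 5.50 (-0.21, adjusted p = 0.261). Its paralog Slc1a3 (GLAST), which radial glia carry as well, had 8.19, 9.81 and 11.28 in p53R172HCKO gliomas and 9.66, 10.34 and 10.83 in p53nullCKO gliomas, against 10.47, 10.55, 10.60, 10.73 and 11.06 in cortices. Most gliomas, 16 of 22, lay under every cortex, but the difference of -0.65 ± 0.34 was not called (adjusted p = 0.114). Slc1a3 was called lower after cyclic loess (-0.94, adjusted p = 0.0274), with array weights (-0.64, adjusted p = 0.00997) and on 1 of its 6 probe sets (-0.98, adjusted p = 0.0432). Its dimmest probe sets went the other way, without a call (0.44, adjusted p = 0.0828, and 0.64, adjusted p = 0.163). Set against the cortices alone, the p53R172HCKO gliomas were lower (-0.88 ± 0.37, adjusted p = 0.0488).

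Gja1 (connexin 43), which joins astrocytes through gap junctions, had 6.30, 8.22 and 12.60 in p53R172HCKO gliomas and 6.72, 9.53 and 11.98 in p53nullCKO gliomas, against 12.53, 12.17, 12.19, 12.12 and 12.60 in cortices. Of 22 gliomas, 21 lay under every cortex, and glioma 58 was at the level of the brightest. Gja1 fell by 3.44 (SE 1.10, adjusted p = 0.0096). It was not called on a probe set with group means of only 5.17 to 5.77 (-0.51, adjusted p = 0.17). Aqp4, the water channel of astrocyte end-feet, had 5.78, 9.48 and 12.05 in p53R172HCKO gliomas and 8.83, 10.72 and 12.22 in p53nullCKO gliomas, against 11.18, 10.33, 10.66, 10.65 and 10.91 in cortices. Gliomas lay on both sides, 5 above and 12 below all cortices, and the difference of -0.64 ± 0.78 was not called (adjusted p = 0.523).

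Aldh1l1, a folate enzyme widely used to mark astrocytes, had 5.28, 6.14 and 9.65 in p53R172HCKO gliomas and 5.78, 7.18 and 10.04 in p53nullCKO gliomas, against 9.37, 9.30, 9.40, 9.76 and 9.53 in cortices. It fell by 2.25 (SE 0.82, adjusted p = 0.0223), with 18 gliomas below every cortex and gliomas 38 and 45 above all of them. Its other probe set, with dim group means (3.80 to 4.50), was not called (-0.64, adjusted p = 0.107). Aldoc, the aldolase of astrocytes, had 8.86, 12.67 and 13.60 in p53R172HCKO gliomas and 11.55, 12.59 and 13.49 in p53nullCKO gliomas, against 13.65, 13.45, 13.55, 13.55 and 13.74 in cortices. Glioma 50 was the lowest and the next glioma had 11.04. Aldoc fell by 1.23 (SE 0.40, adjusted p = 0.011), but its other probe set was not called (-1.19, adjusted p = 0.122). Against the 3 Cre-positive cortices alone, the calls of Gja1 (-3.41, adjusted p = 0.0555), Aldh1l1 (-2.13, adjusted p = 0.112) and Aldoc (-1.19, adjusted p = 0.0674) were lost. That of Aldh1l1 was also lost without cortex 33 (-2.17, adjusted p = 0.0526).

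**Figure D2:**
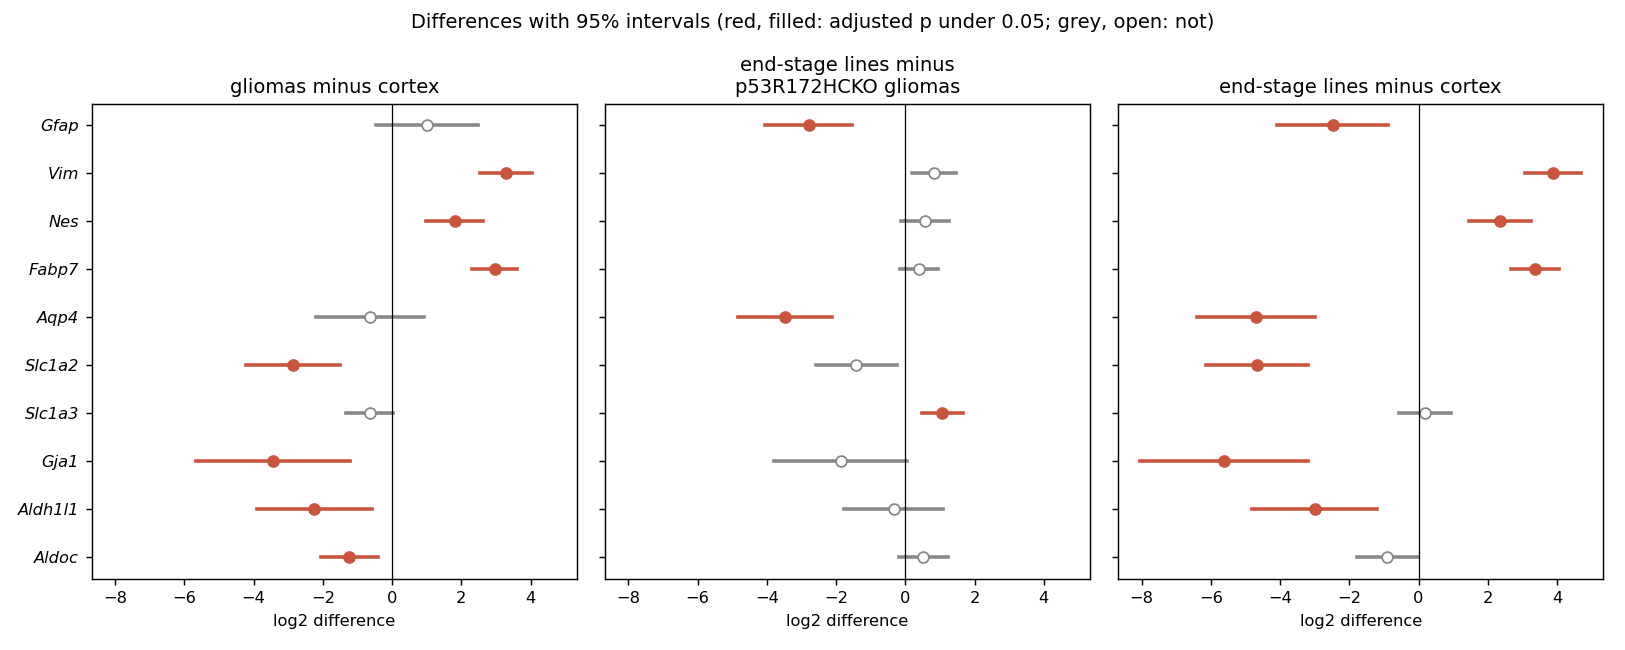
Log2 differences of the 10 genes (horizontal axis) with 95% intervals, for gliomas minus cortices, end-stage lines minus p53R172HCKO gliomas and end-stage lines minus cortices. Red filled points were called, grey open points were not. Vim, Nes and Fabp7 lie right of 0 against cortex, and Gfap and Aqp4 lie left of 0 in both panels of lines.

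Over single gliomas, Slc1a2, Gja1 and Aldh1l1 were brightest where neuron markers were. Gliomas 58, 38 and 45 had the 3 highest Gja1 signals of the 22, 12.60, 11.98 and 11.38. They also had the 3 highest Slc1a2 signals, 12.94, 13.18 and 12.60. Their Aldh1l1 signals were 9.38, 10.04 and 9.84, and of the other gliomas only glioma 60 (9.65) came between them. Without these 3 gliomas, the differences from cortex were larger for Slc1a2 (-3.22, adjusted p = 3.46e-05), Gja1 (-3.92, adjusted p = 0.0021) and Aldh1l1 (-2.63, adjusted p = 0.00457). Since these gliomas were among the brightest for each gene, leaving them out must enlarge a fall, so this change tests nothing about neuron markers. In gliomas against cortex, all 14 measured neuron markers fell, with a median of -4.09, beside 24.7% of all genes. The part of tissue mixture in the level of these genes was not tested.

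**Figure D3:**
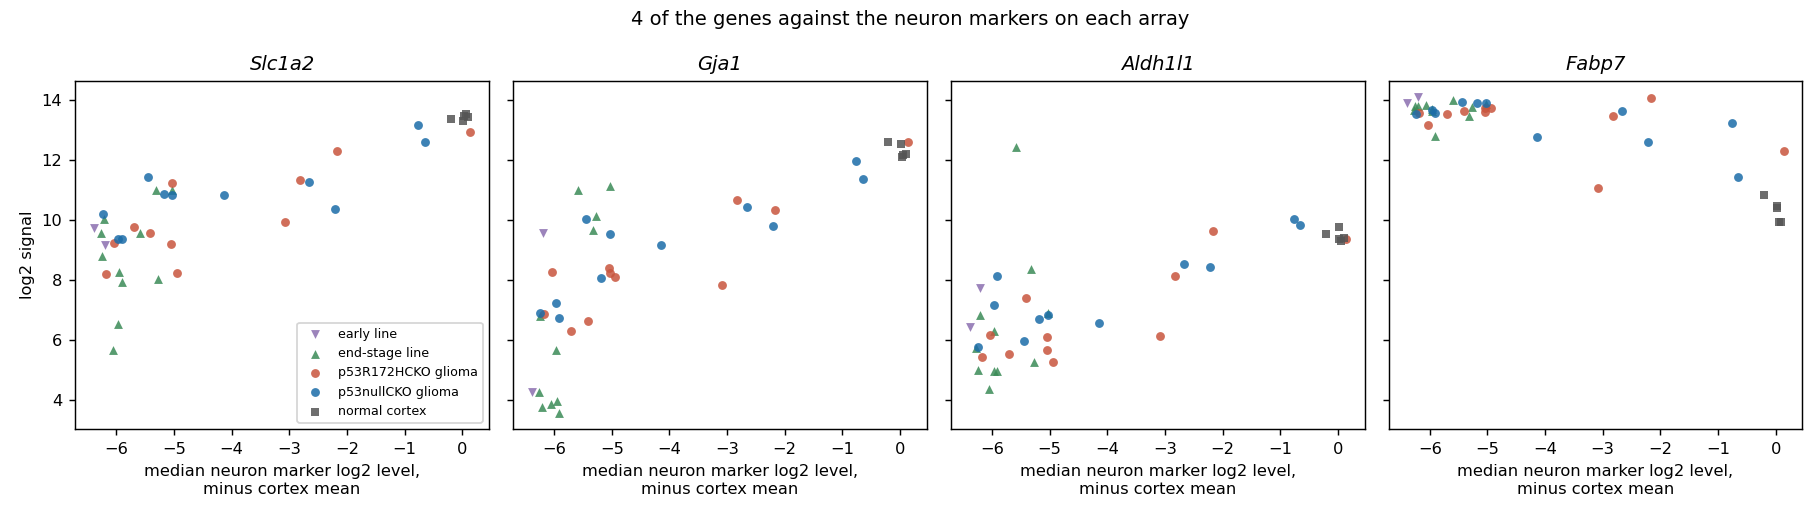
Log2 signal of Slc1a2, Gja1, Aldh1l1 and Fabp7 (vertical axis) against the neuron marker score of the same array, the median log2 difference from the cortex mean (horizontal axis). Circles are gliomas, triangles are lines and squares are cortices. Gliomas 38, 45 and 58 lie near the cortices for Slc1a2, Gja1 and Aldh1l1, and the end-stage lines, all with scores of -5.03 or less, span 3.55 to 11.13 for Gja1.

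Between the genotypes, 0 of the 10 genes were called by limma, with 0.033% of all genes called and 1 of the 10 (Gfap) and 2024 of all genes at an unadjusted p under 0.05. The differences, p53R172HCKO minus p53nullCKO gliomas, ran from -1.38 for Gfap to -0.02 for Nes and Fabp7. The signs of the last 2 turned under some alternatives, with values up to 0.26 for Nes and 0.20 for Fabp7. Gfap averaged 8.56 ± 1.96 in p53R172HCKO and 9.93 ± 1.20 in p53nullCKO gliomas (SD, n = 11 each), with an interval of the difference from -2.64 to -0.11 and an adjusted p of 0.399. The highest Gfap of all gliomas was nonetheless in p53R172HCKO glioma 64. Aqp4 averaged 9.53 ± 1.74 in p53R172HCKO and 10.68 ± 1.02 in p53nullCKO gliomas, with an interval from -2.50 to 0.21 (adjusted p = 0.543). Glioma 54 was the dimmest for Aqp4, at 5.78, where the next glioma had 8.24. The intervals were narrowest for Fabp7, from -0.57 to 0.53, and for Slc1a3, from -1.05 to 0.13. Array numbers run by genotype (35 to 45 are the p53nullCKO gliomas), so array order and genotype cannot be told apart.

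In end-stage lines against p53R172HCKO gliomas, the astrocyte genes Gfap and Aqp4 fell and the transporter gene Slc1a3 rose. The other 7 genes were not called. Of all genes, 7.24% rose and 6.43% fell (1317 and 1170 genes, or 935 and 1349 after cyclic loess). Gfap had a lowest, median and highest signal of 4.35, 5.05 and 9.17 in lines, against 6.20, 8.77 and 11.49 in gliomas. Lines 65 (9.17) and 47 (7.80) reached the glioma range and the other 9 lay below every glioma. Gfap fell by 2.79 (SE 0.62, 6.92-fold, adjusted p = 0.00198) and was dim in 6 of the 11 lines. Aqp4 had 3.12, 6.06 and 9.13 in lines, against 5.78, 9.48 and 12.05 in gliomas. Only 5 lines lay below every glioma, because glioma 54 was itself at 5.78, and 4 lines were dim. Aqp4 fell by 3.48 (SE 0.67, 11.1-fold, adjusted p = 0.000331). Dim lines enter the means of Gfap and Aqp4, so these folds have little resolution at their low end. Lines 65 and 49 (9.04) were the brightest for Aqp4, on all 3 of its probe sets, of which 1 was dim in every end-stage line (3.72 to 4.62).

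Slc1a3 had 8.80, 11.02 and 11.92 in lines, against 8.19, 9.81 and 11.28 in gliomas. Lines 49, 51 and 59 were above every glioma and line 53 was the lowest line. Slc1a3 rose by 1.07 ± 0.29 (2.09-fold, adjusted p = 0.0114), and all 6 of its probe sets were called higher on their own. It was not called with only these 2 groups in the model (adjusted p = 0.0598) or by the methods' t-test after Benjamini-Hochberg (adjusted p = 0.0747). Against p53nullCKO gliomas, Slc1a3 in end-stage lines was not called in limma (0.61 ± 0.29, adjusted p = 0.133). Slc1a2 had 5.66, 8.80 and 11 in lines, against 8.19, 9.78 and 12.94 in gliomas, a difference of -1.42 ± 0.58 that was not called (adjusted p = 0.099). Vim had 10.79, 13.22 and 13.66 in lines, against 10.57, 12.57 and 13.37 in gliomas. Its difference of 0.83 ± 0.31 was not called (adjusted p = 0.0745) but was called without line 53 (1.05, adjusted p = 0.00858), glioma 54 (0.94, adjusted p = 0.0387) or glioma 60 (0.93, adjusted p = 0.0466). For Nes, Fabp7 and Aldoc the differences were 0.57 ± 0.35, 0.40 ± 0.27 and 0.52 ± 0.35, with adjusted p of 0.29, 0.344 and 0.337.

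Markers of the other cells of a tumor moved in the same comparison, in which 6.43% of all genes fell. All 13 microglia and macrophage markers fell in end-stage lines against p53R172HCKO gliomas (median -4.37), with the complement gene C1qb at -7.42 ± 0.22 (adjusted p = 8.83e-25). All 11 endothelial and pericyte markers fell too (median -2.09), with the pericyte gene Rgs5 at -6.03 ± 0.25 (adjusted p = 8.98e-21). Of 9 mature oligodendrocyte markers 5 fell (median -1.87), led by Mobp (-4.06 ± 0.84, adjusted p = 0.000806) and Mbp (-3.66 ± 0.80, adjusted p = 0.00163), and of 14 neuron markers 4 fell (median -1.50), led by Snap25 (-3.59 ± 0.84, adjusted p = 0.00302). Over the 22 gliomas, Gfap had r = 0.51 and rho = 0.40 with the mature oligodendrocyte score (two-sided permutation p = 0.016 and 0.069, adjusted p = 0.047 and 0.17), and 0.44 without gliomas 50 and 56. Aqp4 had r = 0.57 and rho = 0.51 with it (two-sided permutation p = 0.0052 and 0.016, adjusted p = 0.031 and 0.11), and 0.50 without these 2. With the same score, r was 0.64 for Aldh1l1, 0.62 for Aldoc and 0.55 for Slc1a3, with adjusted permutation p of 0.015, 0.011 and 0.036. With the microglia and macrophage score, r was 0.59 for Gfap, 0.54 for Vim, 0.50 for Aqp4 and at most 0.36 for the other genes, without a test. The part of these cells in the differences of the 10 genes was not tested.

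In end-stage lines against cortex, 3 of the 10 genes rose and 5 fell, with 25.5% of all genes higher and 24.3% lower. Vim (3.89 ± 0.40, adjusted p = 7.98e-10), Nes (2.36 ± 0.44, adjusted p = 2.31e-05) and Fabp7 (3.35 ± 0.34, adjusted p = 7.9e-10) were above every cortex in all 11 lines. Aqp4 (-4.69 ± 0.84, adjusted p = 1.47e-05), Slc1a2 (-4.66 ± 0.73, adjusted p = 1.7e-06) and Gja1 (-5.62 ± 1.20, adjusted p = 0.000158) were below every cortex in all 11 lines. A weak probe set of Slc1a2 (-0.24, adjusted p = 0.228) and a weak one of Gja1 (-0.36, adjusted p = 0.382) were not called. Gfap fell by 2.48 (SE 0.79, adjusted p = 0.00838) with 9 of 11 lines below every cortex, a call lost against the Cre-positive cortices alone (-2.18, adjusted p = 0.0724). Aldh1l1 fell by 3.0 (SE 0.89, adjusted p = 0.00482) with 10 of 11 lines below, but its other, dim probe set was not called (-0.43, adjusted p = 0.341). Slc1a3 differed by 0.19 ± 0.37 (interval -0.56 to 0.93, adjusted p = 0.707), although its 2 dimmest probe sets were called higher in lines (0.97, adjusted p = 0.000576, and 1.66, adjusted p = 0.000875). Aldoc lay between 11.64 and 13.39 in lines, against 13.45 to 13.74 in cortices, with no overlap. Its difference of -0.91 ± 0.44 was not called (adjusted p = 0.0836), whereas it was called with only these 2 groups in the model (adjusted p = 0.00355), by the methods' t-test (adjusted p = 0.00632), after cyclic loess (-1.32, adjusted p = 0.0122) and with array weights (-0.90, adjusted p = 0.00242). This comparison shares the lines and the cortices with those above. Array weights called 5854 genes higher and 5360 lower in it, in place of 4641 and 4422.

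Between early and end-stage lines, 0 of the 10 genes were called by limma, where 0% of genes were called, 515 genes and 0 of the 10 passed an unadjusted p under 0.05, and 2 samples left wide intervals. Gfap was 7.70 and 5.32 in early lines 66 and 69, against a median of 5.05 in end-stage lines. Fabp7 was 14.11 and 13.92, against a median of 13.77, and Slc1a3 was 11.88 and 11.53, against 11.02. For Gfap the interval of the difference ran from -1.54 to 3.02, and for Fabp7 from -0.64 to 1.34.

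Lines differed among themselves most in Gja1. Lines 47, 59, 55 and 51 had Gja1 signals of 11.13, 10.99, 10.13 and 9.66. Lines 65 and 61 had 6.81 and 5.66, and lines 68, 57, 63, 49 and 53 had 4.25, 3.95, 3.88, 3.77 and 3.55. Thus 4 lines were bright and 5 were dim, and no fold is given against dim lines. All 6 probe sets of Gja1 put the same 4 lines on top, the weakest of them with signals of at most 5.82 and 6.69. The early lines fell on both sides, with 9.57 in line 66 and 4.26 in line 69. The SD over the 11 end-stage lines, 3.16, ranked 4 from the largest of 18193 genes, whose median SD was 0.33. The neuron scores of the 4 bright lines were -5.03, -5.59, -5.27 and -5.32, the highest of the 11 lines. The other end-stage lines had -5.91 to -6.27, and early lines 66 and 69 had -6.20 and -6.39. A relation of Gja1 to this score over the lines was not tested.

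Other genes had a single bright line or a steady level. Aldh1l1 was 12.44 in line 59, above every cortex and every glioma, where the next line, 51, had 8.38, a 16.7-fold gap, and 5 lines were dim. Both Aldh1l1 probe sets had line 59 as the highest. The nearest measured genes on either side of Aldh1l1 on chromosome 6, Klf15 and Slc41a3, had 7.70 and 6.49 in line 59, inside the range of the other 10 lines (7.20 to 9.97 and 6.39 to 8.09). Gfap was highest in lines 65 and 47 on all 3 of its probe sets. Fabp7 was the steadiest of the 10, with an SD of 0.32 and a range from 12.81 to 14.01. These levels lie close to 14.47, the highest value of any probe set, and the part of signal compression in this spread was not tested. Line 53 was the lowest of the 11 for Vim, Nes, Fabp7, Slc1a3, Gja1 and Aldoc.

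**Figure D4:**
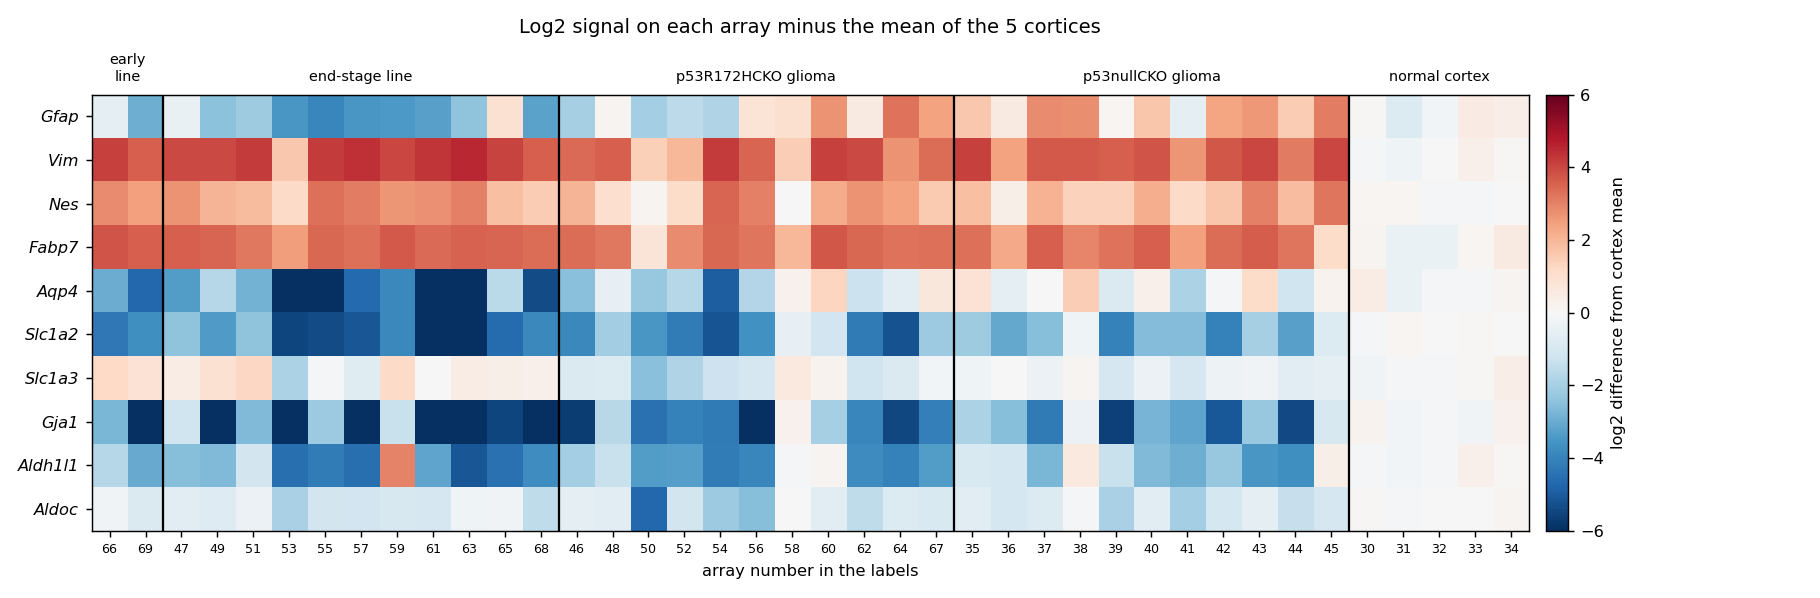
Log2 signal of the 10 genes (rows) on each of the 40 arrays (columns, by array number) minus the mean of the 5 cortices, with groups divided by black lines and differences beyond 6 drawn in the end colors. Vim, Nes and Fabp7 are red over gliomas and lines, apart from Nes in gliomas 50 and 58, Gja1 alternates between pale and deep blue over the end-stage lines, and Aldh1l1 is red in line 59 alone among the lines.

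Ordered by group means, the genes fell into few distinct steps. For Vim, Nes and Fabp7, cortex was the lowest group and differed from the next, p53R172HCKO gliomas, by 3.06, 1.79 and 2.95 (adjusted p = 2.05e-07, 0.000982 and 2.68e-08). For Slc1a2 and Gja1, the next group below cortex was the p53nullCKO gliomas, lower by 2.49 (adjusted p = 0.00567) and 3.12 (adjusted p = 0.0335). No other neighbors in the order differed beyond their spread for these 5 genes. For Gfap, Aqp4, Slc1a3, Aldh1l1 and Aldoc no neighbors in the order were called, and the early lines, with 2 samples, often stood between the others.

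Over the 22 gliomas, most pairs of the 10 genes varied in the same direction. Of 45 pairs, 37 had a Pearson's r above 0 and 18 had an adjusted permutation p under 0.05, all 18 with r above 0. As a description, 82.2% of these pairs had r above 0 against 50.8% of all pairs of the 18193 genes, and 5.13% of all pairs reached an r of 0.48, the lowest of the 18. Markers of neurons varied with 3 of the genes: over the 19 gliomas without 38, 45 and 58, the neuron score had r = 0.74 with Gja1, 0.66 with Aldh1l1 and 0.57 with Slc1a2 (two-sided permutation p = 0.00035, 0.002 and 0.011, adjusted p = 0.01, 0.015 and 0.039). Spearman's rho was 0.69, 0.50 and 0.55 (permutation p = 0.0013, 0.03 and 0.016, adjusted p = 0.026, 0.11 and 0.11), and without gliomas 36 and 60 as well r was 0.68, 0.45 and 0.50. The part of these cells in the correlations between genes was not tested. Slc1a2 and Gja1 had r = 0.84 and Spearman's rho = 0.78 (two-sided permutation p = 1e-05, the smallest that 100000 permutations can give, and 4e-05; adjusted p = 0.00022 and 0.00081). Without the 2 gliomas farthest from the median of Slc1a2, r was 0.80, and within p53R172HCKO and p53nullCKO gliomas it was 0.80 and 0.91. Gfap and Aqp4 had r = 0.81 and rho = 0.77 (permutation p = 1e-05 and 9e-05; adjusted p = 0.00022 and 0.00081), 0.78 without the 2 farthest gliomas, and 0.78 and 0.75 within p53R172HCKO and p53nullCKO gliomas. Vim and Nes had r = 0.76 and rho = 0.71 (permutation p = 7e-05 and 0.00042; adjusted p = 0.0006 and 0.0027), and 0.62 without gliomas 50 and 58. Vim and Fabp7 had r = 0.62 and rho = 0.67 (permutation p = 0.0044 and 0.0011; adjusted p = 0.016 and 0.0048), but r was 0.29 without gliomas 50 and 58, so the linear relation rests on them. Nes had an r of -0.31 with Aldh1l1 and of -0.22 with Slc1a2, neither past the threshold.

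**Figure D5:**
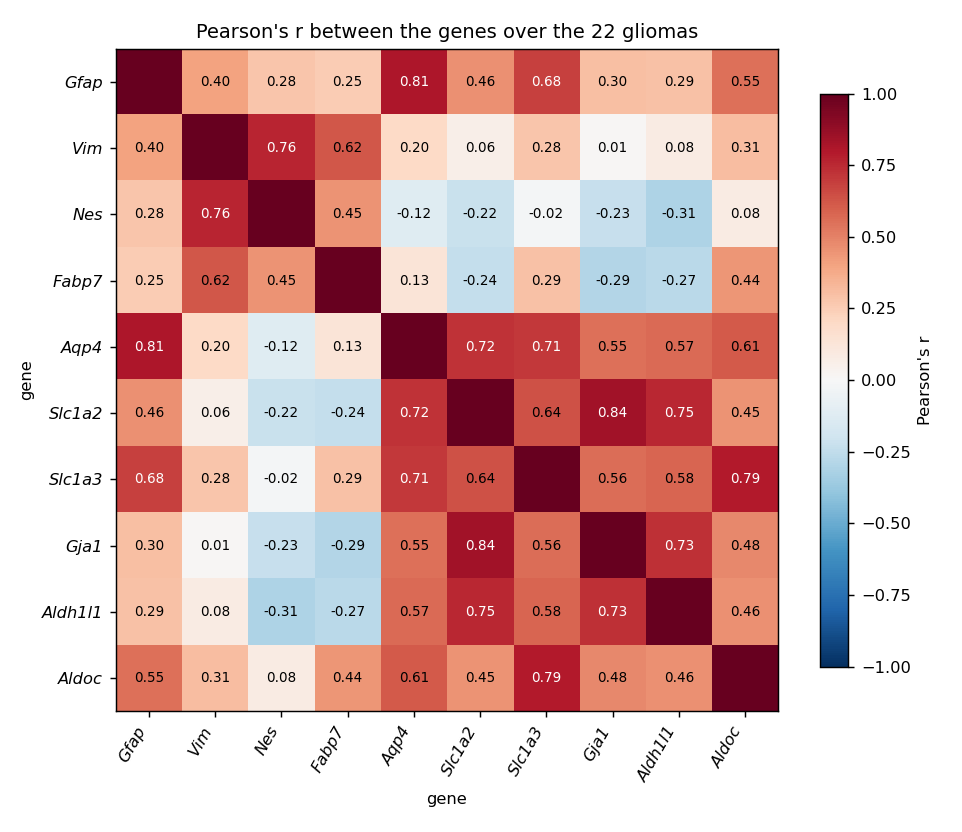
Pearson's r between the log2 signals of each pair of the 10 genes over the 22 gliomas, with red for r above 0 and blue for r below 0. The astrocyte genes from Aqp4 to Aldoc form a red block, with 0.84 for Slc1a2 and Gja1, and Nes and Fabp7 have r below 0 with Slc1a2, Gja1 and Aldh1l1.

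The genes most like each of the 10 over the 22 gliomas were taken as the 3 with the highest r among 10778 genes, so their r describes a choice of the highest and has no test. For Vim they were Anxa6 (0.85), Ifnar2 (0.84) and the matrix gene Tnc (0.83). For Nes they were Tubb6 (0.87), Adamts4 (0.83) and Klf6 (0.81), and for Fabp7 they were Tspan12 (0.90), Rftn2 (0.89) and Antxr1 (0.88). Gfap went with Sdc4 (0.85), Ppp1r3c (0.83) and Cflar (0.82), and Aqp4 with Daam2 (0.86), Mlc1 (0.85), which encodes another end-foot membrane protein, and Itgb5 (0.82). Slc1a3 went with Paqr8 (0.86), Slc9a3r1 (0.84) and Sfxn5 (0.83), and Aldoc with Ctso (0.92), Ndrg2 (0.91) and Sparcl1 (0.87), of which Ndrg2 and Sparcl1 are astrocyte genes. The lists of the remaining 3 held genes of neurons: Gja1 went with the glutamate receptor gene Gria1 (0.93), Ndrg4 (0.93) and the GABA receptor gene Gabrb1 (0.92), and Aldh1l1 with Tmem59l (0.87), Plppr4 (0.86) and the synaptic vesicle gene Syt1 (0.86). For Slc1a2 they were Tuba4a (0.91), Sorl1 (0.89) and Thy1 (0.88), the last a neuronal surface protein.

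Other lists of glial genes give the surroundings of these 10. Of 37 measured genes of mature astrocytes, 0 rose and 20 fell in gliomas against cortex, with a median of -1.44 against -0.03 over all genes. The shares over all genes were 22.6% higher and 24.7% lower. The largest changes were in Gjb6 (-4.54 ± 0.77, adjusted p = 9.48e-06), the partner connexin of Gja1, in the zinc transporter gene Slc39a12 (-3.95 ± 0.73, adjusted p = 2.67e-05) and in the glypican gene Gpc5 (-3.73 ± 0.62, adjusted p = 7.3e-06). In end-stage lines against p53R172HCKO gliomas, 0 of the 37 rose and 6 fell, beside 7.24% and 6.43% of all genes. Fam107a was down the most (-5.61 ± 0.70, adjusted p = 2.35e-07), followed by the thyroid hormone deiodinase gene Dio2 (-1.92 ± 0.45, adjusted p = 0.00293) and the urea transporter gene Slc14a1 (-1.92 ± 0.52, adjusted p = 0.0113).

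Of 30 measured genes of reactive astrocytes, 17 rose and 1 fell in gliomas against cortex (median 1.24), beside 22.6% and 24.7% of all genes. The largest changes were in B3gnt5 (5.42 ± 0.45, adjusted p = 2.11e-11), the chemokine gene Cxcl10 (4.82 ± 0.77, adjusted p = 3.86e-06) and Lcn2 (4.56 ± 0.79, adjusted p = 1.14e-05). In end-stage lines against p53R172HCKO gliomas, 0 rose and 12 fell (median -0.77 against 0.05 over all genes), beside 7.24% and 6.43% of all genes. Lower the most were Srgn (-7.01 ± 0.28, adjusted p = 2.66e-21), Psmb8 (-3.26 ± 0.59, adjusted p = 0.000167) and S1pr3 (-3.24 ± 0.50, adjusted p = 1.04e-05). Srgn, a proteoglycan of blood cells, and Psmb8, an immunoproteasome subunit, are also made by leukocytes. The microglia and macrophage markers moved the same way, with 8 of 13 higher in gliomas against cortex (1 lower) and 13 of 13 lower in the lines, and their part in the reactive list was not tested.

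Of 29 measured genes of radial glia and neural stem cells, 8 rose and 6 fell in gliomas against cortex, with a median of 0.06. These shares lie near the 22.6% and 24.7% of all genes. The largest changes were in Tnc (3.59 ± 0.63, adjusted p = 1.4e-05), Cd9 (2.69 ± 0.34, adjusted p = 9.92e-08) and the growth factor receptor gene Fgfr2 (-1.78 ± 0.44, adjusted p = 0.00107). In end-stage lines against p53R172HCKO gliomas 4 of the 29 rose and 0 fell (median 0.50), beside 7.24% and 6.43% of all genes. Among the 4 were Egfr (2.69 ± 0.69, adjusted p = 0.00691), the receptor for the EGF that neural stem cell medium contains, and the stem cell factors Sox9 (1.75 ± 0.43, adjusted p = 0.00523) and Sox2 (1.24 ± 0.42, adjusted p = 0.0406).

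Among 37 measured regulators of glial genes, 16 rose and 5 fell in gliomas against cortex (median 0.57), beside 22.6% and 24.7% of all genes, with the largest changes in the STAT3 target and inhibitor Socs3 (3.60 ± 0.55, adjusted p = 1.7e-06), the oligodendrocyte lineage factor Olig2 (2.29 ± 0.68, adjusted p = 0.00544) and the ligand gene Bmp4 (1.84 ± 0.76, adjusted p = 0.0436). In the lines against gliomas (median 0.25) 2 rose, Sox9 and Pou3f3 (0.71 ± 0.20, adjusted p = 0.0136), and 1 fell, Tgfb1 (-1.22 ± 0.23, adjusted p = 0.000268). These shares of the 37 lie under the 7.24% and 6.43% of all genes. Among 38 measured partners and paralogs of the 10 genes, 7 rose and 17 fell in gliomas against cortex (median -0.51), beside 22.6% and 24.7% of all genes. The largest changes were in the neurofilament genes Nefl (-5.56 ± 1.14, adjusted p = 0.00012), Nefh (-5.45 ± 0.74, adjusted p = 2.99e-07) and Nefm (-4.75 ± 1.01, adjusted p = 0.000176), which neurons express and whose fall goes beside that of all 14 neuron markers. In the lines against gliomas (median -0.11) 5 of the 38 rose and 2 fell, beside 7.24% and 6.43% of all genes. Synm, a filament partner of Gfap and Vim, was lower (-2.18 ± 0.46, adjusted p = 0.00118), as was the fatty acid-binding protein gene Fabp3 (-1.48 ± 0.45, adjusted p = 0.025). The neutral amino acid transporter Slc1a5, a paralog of Slc1a3, was higher (1.08 ± 0.28, adjusted p = 0.0077). No gene of these 5 lists was called between the genotypes.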

How the data were processed

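RNA of 40 samples was hybridized to Affymetrix mouse genome arrays. The authors deposited log2 values of 45101 probe sets after robust multi-array averaging (background correction, quantile normalization and summary over probes), which can narrow differences between arrays. The base of the log was read from the values, 2.00 to 14.47. After 64 control probe sets were left out, 34945 probe sets named 1 gene in GEO's platform annotation, 34741 of them matched to RefSeq. Each of 18193 genes took its brightest probe set over all arrays. Of the probe sets of the 10 genes, 34 named 1 gene, and 1 of Slc1a2, which named several, was not used. Contrasts of a 5-group model were fitted in limma 3.58.1 (R 4.3.3) with Benjamini-Hochberg adjustment and a threshold of 0.05, after the pipeline was tested on simulated data. Permutations and scores used Python 3.11.15 with scipy 1.17.1, numpy 2.4.6 and pandas 2.3.3. The number of arrays limits the precision. The genes and lists (mature and reactive astrocytes, radial glia and neural stem cells, regulators, partners and paralogs, cell cycle, and markers of other cells) were chosen with earlier results of these data known. From each list, the 3 called genes with the largest difference per comparison were named, and for each of the 10 genes the 3 most correlated genes. Alternatives changed the probe set rule, filter, normalization, model, test, cortices and gliomas, and left out each sample in turn. The highest correlation between 2 arrays was 0.992, so none was treated as a duplicate.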

Additional observations from a re-analysis of the deposited data

How the results depend on the processing

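The counts of genes called among the 10 changed by more than 1.5 times in few settings. With the 3 Cre-positive cortices alone, 4 were called in gliomas against cortex in place of 7, and 1 was lower in place of 4. In end-stage lines against p53R172HCKO gliomas, 0 were higher with only the compared groups and 0 with the methods' t-test, in place of 1, and leaving out each sample in turn gave 1 to 2. Over all genes, the genotype contrast called 0 to 14 genes in place of 6 (14 with array weights), and array weights called 1 early-line gene in place of 0. Of 1620 single-gene values under alternatives, 7 lost a call, 12 gained one, 1569 kept their call and sign, and 32, over 8 differences of which 0 were called, had the other sign. Pairs with r above 0 numbered 32 to 39 in place of 37. No paired analysis was possible because, although the study describes tumors and lines as paired, the labels do not tie a line to a tumor, and replicate numbers only follow accession order. Levels under the array median give little resolution, which limits Gfap, Aqp4, Gja1 and Aldh1l1 in lines, and the 2 early lines allow only large differences to be seen.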

Other observations

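Other marker lists were compared between gliomas and cortex as well, where 22.6% of all genes rose and 24.7% fell. All 11 measured cell cycle genes rose in gliomas against cortex (median 5.75) and 0 of them were called in end-stage lines against p53R172HCKO gliomas. Of 10 oligodendrocyte progenitor markers, 7 rose and 0 fell against cortex, led by Vcan (3.84 ± 0.67, adjusted p = 1.41e-05), while 6 of 9 mature oligodendrocyte markers fell, led by Ermn (-4.30 ± 0.59, adjusted p = 3.29e-07). Of 11 endothelial and pericyte markers 5 fell, of 10 ependyma and choroid plexus markers 8 fell, of 9 fibroblast and meningeal markers 4 fell, and of 10 neuroblast markers 1 rose and 4 fell. The endothelial, fibroblast and neuroblast counts lie not far from the background. Adjusted p-values are from limma over all genes.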
